A study of Homo sapiens with 6 samples.

Results

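The genes of the mitochondrial ribosome were examined in PC-3 cells, an established prostate cancer cell line, after 48 h with one of a pair of small molecules used to block glutamine uptake through the transporter ASCT2. The members were chosen by name alone, as every listed gene called MRPL or MRPS followed by a number and, in some cases, a letter A to C. These were 75 of 19491 genes, of which 46 carried an MRPL (large subunit) and 29 an MRPS (small subunit) name. Untreated cells (control), cells with 1 mM GPNA (L-γ-glutamyl-p-nitroanilide) and cells with 10 mM BenSer (benzylserine) were compared by sequencing of total RNA, with 2 labelled libraries per group. The control is labelled as given no treatment, all groups are the same cell line, and the treated groups differ in dose as well as in compound.

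The mitochondrion keeps a ribosome of its own, which translates the few messenger RNAs encoded in mitochondrial DNA, all of them for subunits of the respiratory chain and ATP synthase. Its ribosomal RNAs come from mitochondrial DNA, whereas each of its proteins is encoded in the nucleus, made in the cytosol and imported. The large subunit forms peptide bonds, the small subunit reads the message, and many of the proteins have no counterpart in bacteria. Gene names follow old assignments: MRPS30 and MRPS18A are proteins of the large subunit in solved structures, and MRPS36 is now known as a component of the 2-oxoglutarate dehydrogenase complex.

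The libraries held between 23077986 and 32178154 reads, of which 51.6% to 52.7% fell on listed genes. Values are reads per 1000000 reads of the library (CPM). Within each group, the chi-square per degree of freedom between columns 1 and 2 was 1.05 to 1.06 over all genes and 0.676 to 0.874 over the members, where read sampling alone gives about 1. The excess over all genes is small but more than sampling (chi-square p = 1.29e-08 for control, 3.24e-05 for GPNA and 9.59e-06 for BenSer), and over the members none was found (p = 0.774 to 0.986). The labels name the columns as separate samples and do not say whether they came from separate cultures. Being so close, they were counted as 1 sample, a choice that leaves no replicate check of a treatment, and no p-value for one is given. Between groups the same quantity over the members was 2.93 (GPNA and control) to 14.9 (BenSer and control). The keratins KRT8 and KRT18, EPCAM, CDH1 and VIM were present at 85.6 to 292 CPM, as known for PC-3 cells, and KLK3 was not listed. Of other cell types' markers, COL1A1 was at 3.65 to 6.07 CPM, COL3A1 at 0.589 to 1.31 CPM and ACTA2 at 0.373 to 0.892 CPM, while PTPRC, CD3E, PECAM1, VWF and DES were not listed.

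The members lie on 21 chromosomes, and 24 of them start within 1000 bases of, and face away from, the start of another gene. The share of all genes arranged so was not computed, and the count is therefore not read as a trait of the family. MRPL46 and MRPS11 form such a pair on chromosome 15, with starts 320 bases apart, as do MRPS12 and SARS2, the mitochondrial seryl-tRNA synthetase, with starts 181 bases apart. The promoters were searched for the letters that ETS-family factors bind, CCGGAAG, on both strands from 250 bases before to 50 bases after the start, because the ETS factor GABP is known for its part in the expression of mitochondrial genes. They occurred in 30 of 75 member promoters (40%) and in 18.1% of 13755 promoters of all protein-coding genes with a window. Of the 41 matches in members, 63.4% began between 60 bases before the start and the start itself, against 44.4% of all matches. The letters bound by YY1 (CAA and ATGGCG with 1 base between them) occurred in 10.7% of member promoters against 3.59% of all. Those of NRF1 (GCGCA and GCGC with 1 base between them) occurred in 9.33% against 11%, the E-box CACGTG in 9.33% against 9.56%, CCAAT in 29.3% against 35.6%, the TATA letters TATAAA in 5.33% against 6.05%, and TGATGNAA, read by ATF4 with a C/EBP partner, in 1.33% against 1.66%. The median guanine and cytosine content of the windows was 59.3% in members and 66% in all promoters. A match is a description of the sequence and not a site shown to be bound.

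For 18 members the whole ETS letters stood within the 60 bases before the start. The 6 of them with the lowest values in BenSer-treated cells are printed, since they show the letters where they cluster in this gene family, read 5′ to 3′ on the strand of the gene from the GRCh37 genome with the letters, or their reverse complement CTTCCGG, in capitals. The windows lie at chr1:1342674-1342733 (minus strand) for MRPL20, chr2:27994526-27994585 (plus) for MRPL33, chr1:150266221-150266280 (plus) for MRPS21, chr17:48450546-48450605 (minus) for MRPL27, chr19:3762620-3762679 (plus) for MRPL54 and chr3:179322427-179322486 (minus) for MRPL47.
MRPL20: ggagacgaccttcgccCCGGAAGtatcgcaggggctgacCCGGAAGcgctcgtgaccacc
MRPL33: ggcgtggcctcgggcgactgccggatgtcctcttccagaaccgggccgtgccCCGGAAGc
MRPS21: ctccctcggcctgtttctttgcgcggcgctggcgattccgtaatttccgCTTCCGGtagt
MRPL27: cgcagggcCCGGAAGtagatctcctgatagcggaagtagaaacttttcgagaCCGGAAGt
MRPL54: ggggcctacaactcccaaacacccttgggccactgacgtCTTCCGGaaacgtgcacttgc
MRPL47: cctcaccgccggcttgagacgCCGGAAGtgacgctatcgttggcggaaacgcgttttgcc
MRPL20 and MRPL27 hold the letters in 2 places and the others in 1. The members with the letters in the searched window and those without them had nearly the same median difference between BenSer-treated and control cells, at −0.25 (30 genes) and −0.26 (45 genes) on the scale of log2(CPM + 1).

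The summed level of the 75 members was lower in treated cells. It was 2038.9 and 2043.6 CPM in the control columns, 1926.7 and 1919.8 CPM in GPNA columns, and 1690.9 and 1689.8 CPM in BenSer columns. Both GPNA columns were below both control columns, and both BenSer columns were below all others. The sum was thus 5.78% below control with GPNA and 17.2% below control with BenSer. Lower values with GPNA were not particular to the members. Over genes with a mean of at least 10 CPM the median GPNA difference was −0.06 on the log2(CPM + 1) scale. Of those genes, 49.9% had both GPNA columns below both control columns. MRPL genes summed to 1202.3 and 1202.9 CPM in control, 1114.1 and 1115.0 CPM in GPNA-treated and 989.0 CPM in each column of BenSer-treated cells. MRPS genes summed to 836.7 and 840.8 CPM, 812.6 and 804.7 CPM, and 701.8 and 700.7 CPM in the same order. The MRPL sum was 1.44 and 1.43 times the MRPS sum in control, 1.37 and 1.39 times in GPNA-treated and 1.41 times in BenSer-treated cells. This ratio goes by name, with MRPS30, MRPS18A and MRPS36 counted as MRPS, and has no counting error beside it. By structure it was not computed. The BenSer medians by structure were −0.24 over large and −0.27 over small subunit genes. The small step from control to BenSer is therefore not read as a change between the subunits. The step from control to GPNA was larger. With GPNA the MRPL median minus the MRPS median was −0.0403 by name and −0.0275 by structure. The counting error beside it was 0.0261, and the difference between the subunits was not tested. CPM is a share of all reads: a smaller share of a cell's RNA and less of this RNA per cell cannot be told apart.

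**Figure D1:**
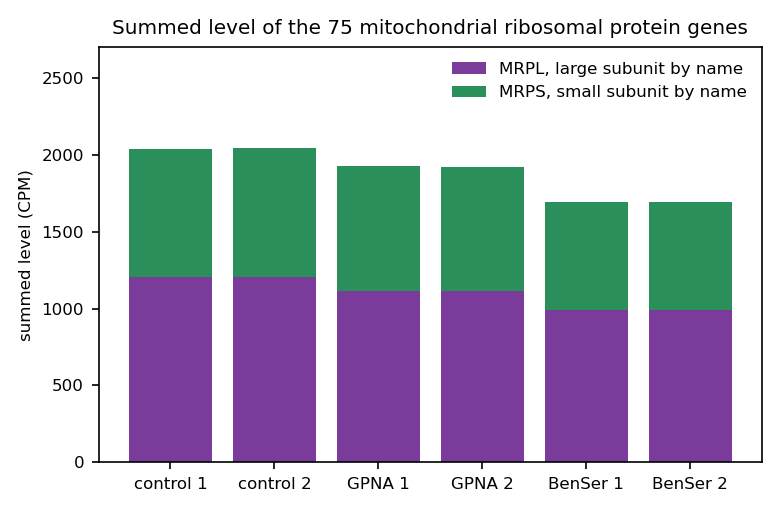
Bars give the summed level in CPM of the MRPL genes (46) and MRPS genes (29), stacked from 0, in each of the 6 labelled columns; there are no error bars because columns of a group were counted as 1 sample. The total goes from 2038.9 CPM in control column 1 to 1689.8 CPM in BenSer column 2, with both parts lower in both treated groups.

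Levels of single members in the control spanned a 91.1-fold range when divided by the length of the main transcript. The median was 18.4 CPM per kilobase over the MRPL genes and 12 CPM per kilobase over the MRPS genes. The highest were MRPL20 (60.8 CPM per kilobase), a protein that binds ribosomal RNA early in the building of the large subunit, MRPL37 (59.8) and MRPL24 (54.1). The lowest were MRPL38 (0.668), MRPL12 (0.728), which forms the stalk that recruits translation factors and is also known to bind the mitochondrial RNA polymerase, and MRPS24 (1.04). In the annotation each of these 3 shares much of its transcript with another gene on the same strand: 94.3% for MRPL38, 69.5% for MRPL12 and 90.9% for MRPS24, whose partner is the read-through gene URGCP-MRPS24. Of all members, 12 share at least 20% of their transcript with another gene on the same strand, and their levels are uncertain for that reason. A further source of uncertainty is that 34 members have named pseudogenes, 73 in all, with which short reads can be shared.

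The mitochondrial ribosomal protein genes were lower in BenSer-treated cells than in control as a group. Of the 75 members, 38 were lower by 1.2-fold or more, where 15% of the 18976 genes past the read filter were, and 0 were higher by 1.2-fold or more, where 10.4% of all genes were. None passed 1.5-fold on the log2(CPM + 1) scale, a size that 1.58% of all genes reached downwards and 1.96% upwards. In plain CPM, without the pseudocount, the weakly expressed MRPL12 and MRPS24 did, at 0.594 and 0.609 of control. The median difference was −0.26 on the log2(CPM + 1) scale over the members and −0.03 over all genes. The share was similar for both names: 23 of 46 MRPL and 15 of 29 MRPS genes were lower by 1.2-fold or more, with medians of −0.25 and −0.26.

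The members are short and well expressed genes, with a median transcript of 1224 bases against 3351 bases over protein-coding genes. The comparison was therefore repeated against protein-coding genes with at least 10 CPM and a transcript under 2000 bases, a set chosen after the data were seen. Of these 1483 genes, 29.4% were lower by 1.2-fold or more, and their median was −0.14. The exact 95% interval of the difference, which covers counting error only, lay wholly below 0 for 58 members and wholly above 0 for 0, against 18.2% of all genes. The background for the lower side was 25.8% of all genes, 41.3% of genes with at least 10 CPM and 56.5% of the short genes. Both BenSer columns lay below both control columns for 63 members, against 37.5% of all genes, 48% of genes with at least 10 CPM and 63.4% of the short genes. With the libraries scaled by TMM, which sets the median of all genes near 0, 28 members were lower by 1.2-fold or more, and the split over all genes was 12.1% lower and 12.9% higher instead of 15% and 10.4%.

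**Figure D2:**
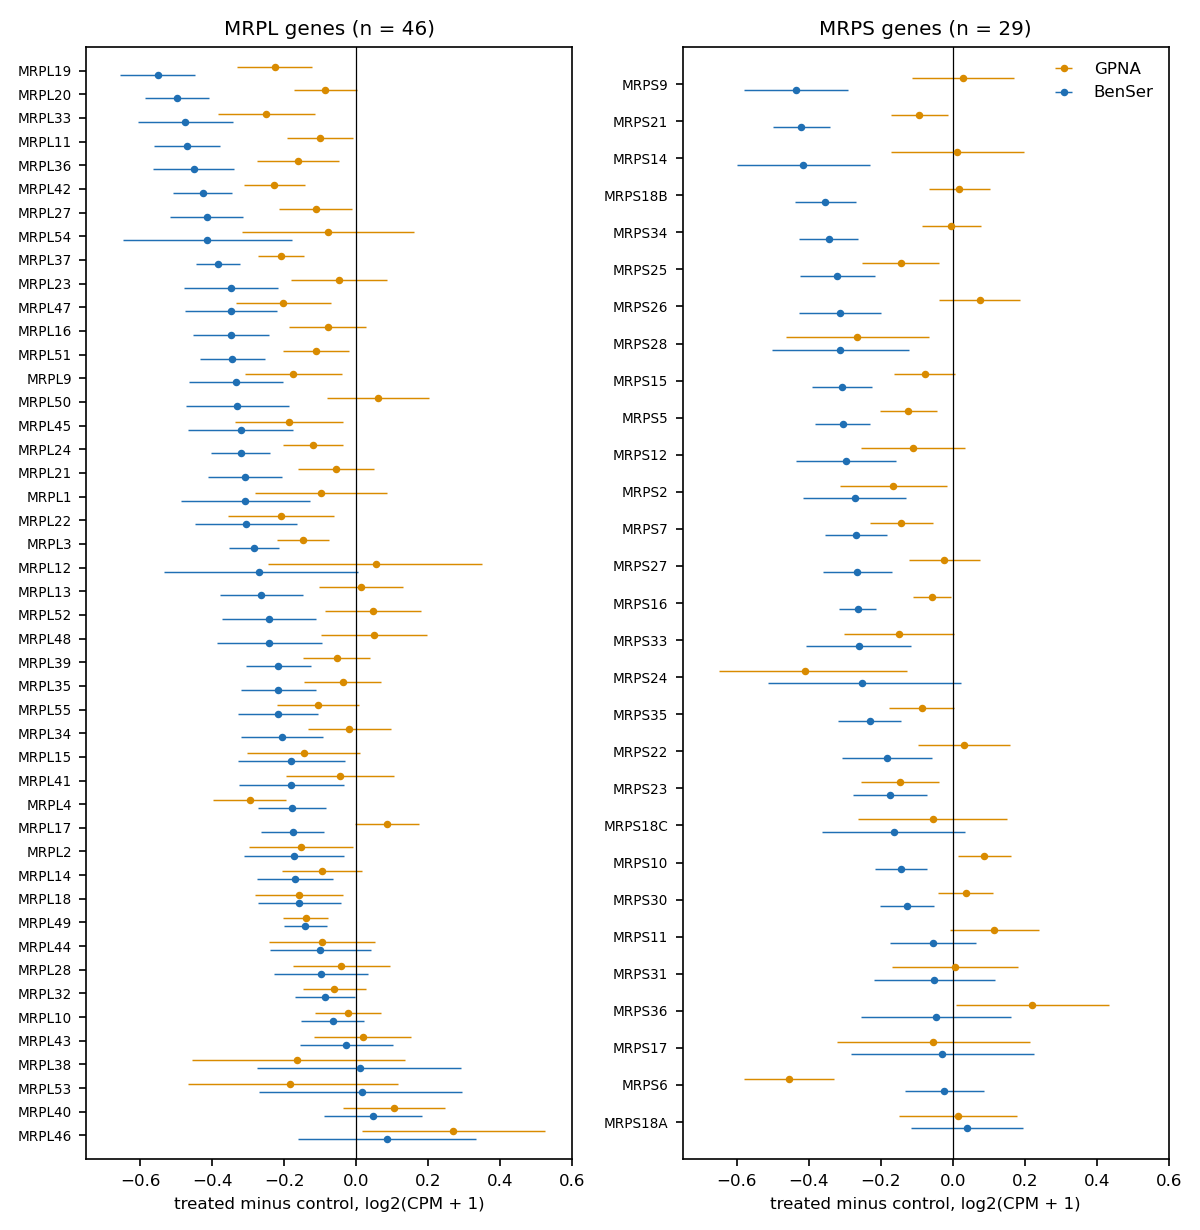
Points give the difference in log2(CPM + 1) between treated and control cells for each member, with exact 95% intervals that cover counting error only, for GPNA (orange) and BenSer (blue). Members are ordered by their BenSer value from lowest (top) to highest; the BenSer points run from −0.55 (MRPL19) to 0.09 (MRPL46).

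MRPL19, a large subunit protein with a bacterial counterpart, had the lowest value in BenSer-treated cells. Its level was 31.0 and 31.9 CPM in control, 26.5 and 26.9 CPM in GPNA-treated and 21.3 and 21 CPM in BenSer-treated cells. The columns of the 3 groups did not overlap and stood in that order. The difference between BenSer and control was −0.55 (interval −0.66 to −0.45), which put the level at 0.672 of control. MRPL19 (ENSG00000115364, chr2:75873909-75917977, plus strand, GRCh37) shares 22.3% of its transcript with a long noncoding RNA on its own strand.

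MRPL20 (ENSG00000242485, chr1:1337289-1342673, minus strand, 4 exons), the member with the highest level per kilobase, came next. It was at 42.1 and 43.1 CPM in control, 39.4 and 40.7 CPM in GPNA-treated and 30.3 and 29.3 CPM in BenSer-treated cells. Its BenSer columns lay well below all others, and the difference from control was −0.50 (interval −0.59 to −0.41).

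MRPL33, a small protein of the large subunit, was at 17.3 and 18.2 CPM in control, 15.2 and 14.3 CPM in GPNA-treated and 12.6 and 12.4 CPM in BenSer-treated cells. The 3 groups again did not overlap, with a BenSer difference of −0.48 (interval −0.61 to −0.34). MRPL11, which sits at the base of the stalk, was at 38.4 and 40.1 CPM in control, 36.7 and 36.3 CPM in GPNA-treated and 28.0 CPM in each column of BenSer-treated cells. MRPL36, a very small protein of the large subunit with a bacterial homologue, was at 25.1 and 25.6 CPM, 23.4 and 21.7 CPM, and 18.4 and 18.1 CPM in the same order. Their BenSer differences from control were −0.47 and −0.45, and in both genes all groups were separate.

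MRPS9, whose bacterial counterpart touches the peptidyl tRNA on the small subunit, had the lowest BenSer value among the MRPS genes. It was at 14.7 and 14.3 CPM in control, 14.8 CPM in each column of GPNA-treated and 10.5 CPM in each column of BenSer-treated cells. Control and GPNA columns were close together, and the BenSer columns were below both. The BenSer difference from control was −0.44 (interval −0.58 to −0.29).

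Among members with well-known roles, MRPL10 and MRPL44 were nearer to control than the member median of −0.26, and MRPS12 and MRPL45 were not. MRPL10, which anchors the stalk, was at 38.5 and 38.8 CPM in control and 36.6 and 37.2 CPM in BenSer-treated cells, with a difference of −0.07 (interval −0.15 to 0.02). MRPL44, a protein with an RNase III-like fold, was at 14.1 and 13.9 CPM in control and 13.1 and 12.9 CPM in BenSer-treated cells, with a difference of −0.10 (interval −0.24 to 0.04). For both genes the BenSer columns were below the control columns while the interval held 0. MRPS12, at the decoding centre, and MRPL45, which ties the ribosome to the inner membrane, had differences of −0.30 (interval −0.44 to −0.16) and −0.32 (interval −0.47 to −0.18). These 4 were named for their roles after their values were seen.

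Among members with at least 100 reads in both groups, the highest BenSer values were those of MRPL46, MRPL40, MRPS18A and MRPS6. MRPL46 was at 2.71 and 2.64 CPM in control and 2.61 and 3.19 CPM in BenSer-treated cells, and MRPL40 at 14.2 CPM in each control column and 14.4 and 15.0 CPM in BenSer-treated cells. MRPS18A was at 10.2 and 10.8 CPM in control and 10.4 and 11.3 CPM in BenSer-treated cells. Their differences were 0.09, 0.05 and 0.04, each with an interval that held 0. MRPL53 (0.01) and MRPL38 (0.01), with fewer reads, also lay above MRPS6 (−0.02). MRPL46 shares 73.4% of its transcript with another gene on the same strand, and MRPS18A 60.6% with RSPH9 on the opposite strand.

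The 3 MRPS18 genes are paralogues descended from one bacterial protein, and their products sit in different places. MRPS18B and MRPS18C belong to the small subunit, and MRPS18A to the large. MRPS18B was at 44.6 and 43.5 CPM in control, 43.4 and 45.9 CPM in GPNA-treated and 35.2 and 33.3 CPM in BenSer-treated cells, with a BenSer difference of −0.35 (interval −0.44 to −0.27). MRPS18C was at 6.11 and 5.94 CPM in control and 4.41 and 6.14 CPM in BenSer-treated cells, and its columns overlapped. Its difference was −0.16 (interval −0.36 to 0.03), and 83.6% of its transcript overlaps ABRAXAS1 on the opposite strand. MRPS18B was thus the one of the 3 whose BenSer columns lay apart from control.

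MRPS30, a large subunit protein despite its name, was at 54.2 CPM in each control column, 55.5 and 55.7 CPM in GPNA-treated and 49.8 and 49.4 CPM in BenSer-treated cells. Its BenSer columns were below all others by a small amount, −0.13 against control (interval −0.20 to −0.05). MRPS36 was at 4.48 and 5.42 CPM in control, 5.74 and 6.13 CPM in GPNA-treated and 4.94 and 4.57 CPM in BenSer-treated cells, where it overlapped control. MRPL12 was at 0.603 and 0.867 CPM in control and 0.404 and 0.470 CPM in BenSer-treated cells, a difference of −0.27 (interval −0.54 to 0.01) that is understated by the pseudocount at so low a level. When MRPS30 and MRPS18A were moved to the large subunit and MRPS36 was left out, the BenSer medians were −0.24 over 48 large subunit genes and −0.27 over 26 small subunit genes.

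In GPNA-treated cells, the members were close to the background in their counts at 1.2-fold. Of 75, 4 were lower by 1.2-fold or more, where 5.86% of the 18828 genes past the filter were, and 1 was higher, where 5.18% were. Both shares are near to or below the background. None passed 1.5-fold on the log2(CPM + 1) scale, which 0.0637% of all genes did downwards and 0.34% upwards. In plain CPM, without the pseudocount, MRPS24 did, at 0.396 of control. The number of members lower was 7 when GPNA replicate 1 was left out. The median difference was −0.09 over the members, −0.03 over all genes and −0.06 over the short genes. By name it was −0.10 over MRPL genes and −0.06 over MRPS genes. The interval lay below 0 for 28 members, against 20.1% of all genes, 37.4% of genes with at least 10 CPM and 38.8% of the short genes. It lay above 0 for 3, against 9.78% of all genes. Both GPNA columns lay below both control columns for 46 members, against 34.4% of all genes. The share was 49.9% of those with at least 10 CPM and 50.5% of the short genes. With TMM scaling 2 members were lower by 1.2-fold or more, and the split over all genes was 4.11% lower and 6.38% higher instead of 5.86% and 5.18%.

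**Figure D3:**
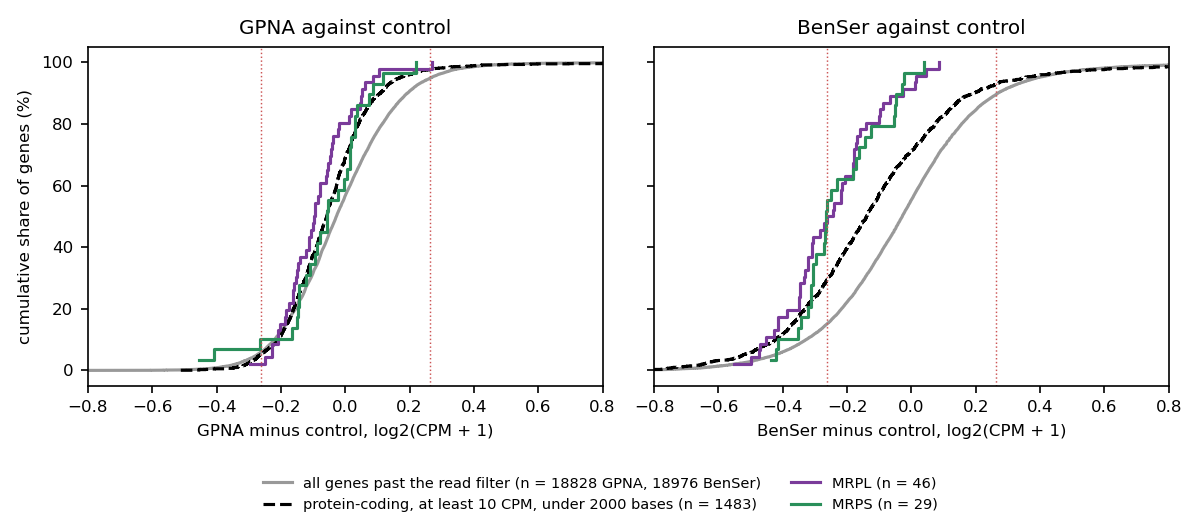
Curves give the cumulative share of genes (%) at or below each difference in log2(CPM + 1) from control, for GPNA (left) and BenSer (right), over MRPL genes, MRPS genes, all genes past the read filter and short, well expressed protein-coding genes; dotted lines mark 1.2-fold. In the BenSer panel both member curves lie to the left of the others through their middle (medians −0.25 and −0.26 against −0.03 and −0.14), and in the GPNA panel they lie close to the curve of short genes.

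The 4 members lower by 1.2-fold or more with GPNA were MRPS6, MRPS24, MRPL4 and MRPS28. MRPS6, a protein of the small subunit platform, was at 22.7 and 23.5 CPM in control, 16.4 and 16.9 CPM in GPNA-treated and 22.4 and 23.1 CPM in BenSer-treated cells. It was lower in GPNA columns alone and overlapped control in BenSer columns, with differences of −0.45 (interval −0.58 to −0.33) and −0.02 (interval −0.13 to 0.09). MRPS6 (ENSG00000243927, chr21:35445524-35515334, plus strand) shares 33.1% of its transcript with genes on the same strand, among them SLC5A3, the myo-inositol transporter, with which it shares 18%.

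MRPL4, which lines the tunnel through which the new peptide leaves, was at 34.0 and 34.4 CPM in control, 27.6 and 27.7 CPM in GPNA-treated and 30.6 and 29.6 CPM in BenSer-treated cells. Both treatments were below control, GPNA further, with differences of −0.30 (interval −0.40 to −0.20) and −0.18 (interval −0.27 to −0.09). MRPL4 (ENSG00000105364) lies at chr19:10362577-10370731 on the plus strand.

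MRPS28 was at 7.28 and 7.11 CPM in control, 5.97 and 5.66 CPM in GPNA-treated and 5.78 and 5.42 CPM in BenSer-treated cells, so that both treated groups were below control and overlapped each other. Its GPNA difference was −0.27 (interval −0.46 to −0.07). MRPS24, whose product helps to form the entry for the message, was at 0.646 and 0.737 CPM in control, 0.194 and 0.354 CPM in GPNA-treated and 0.373 and 0.470 CPM in BenSer-treated cells, from few reads. Of the 4, MRPS6, MRPS24 and MRPS28 are among the 12 members that share at least 20% of their transcript with another gene on the same strand. MRPS24 was named because it was one of a count of 4, after its value was seen.

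The next lowest with GPNA were MRPL33, MRPL42 and MRPL19, with differences of −0.25, −0.23 and −0.23, all short of 1.2-fold on the log2(CPM + 1) scale. For MRPL33 this rests on the pseudocount, since its plain ratio of CPM was 0.832. MRPL42, a protein with no bacterial counterpart, was at 47.7 and 47.9 CPM in control, 41.8 and 39.5 CPM in GPNA-treated and 34.7 and 35.8 CPM in BenSer-treated cells, again in that order without overlap. On the other side, MRPL46 was at 3.57 and 3.30 CPM in GPNA-treated cells, above both control columns, with a difference of 0.27 (interval 0.01 to 0.52). MRPS36 followed at 0.22 (interval 0.01 to 0.43). MRPS11, the head-to-head neighbour of MRPL46, was at 20.1 and 18.2 CPM in control and 20.8 and 20.9 CPM in GPNA-treated cells, with a difference of 0.12 (interval −0.01 to 0.24), and MRPL40 had a difference of 0.10 (interval −0.04 to 0.25).

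**Figure D4:**
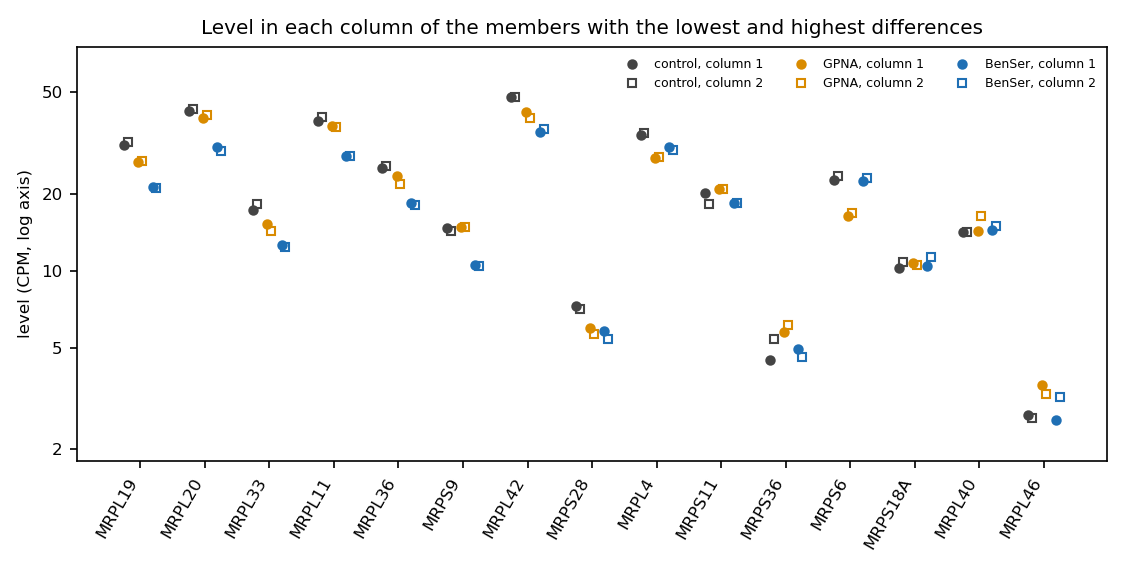
Points give the level in CPM, on a log axis, of the 15 members with the lowest and highest differences, in column 1 (filled circles) and column 2 (open squares) of control, GPNA and BenSer, ordered by their BenSer difference. MRPL19 steps down from 31.0 CPM in control column 1 to 21 CPM in BenSer column 2, and MRPS6 is low only in the GPNA columns, at 16.4 and 16.9 CPM.

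Both comparisons above use the same control columns, so that their values are not independent of each other. Set directly against each other, without the control, 21 members were lower by 1.2-fold or more in BenSer-treated than in GPNA-treated cells, against 11% of 19056 genes, and 1 was higher, against 10.5%. Of the short genes, 18% were lower and 6.74% higher. The interval lay below 0 for 47 members, against 20.7% of all genes and 44.6% of the short genes, and above 0 for 2, against 21.2% of all genes. None passed 1.5-fold on the log2(CPM + 1) scale, which 0.813% of all genes did downwards and 1.05% upwards; in plain CPM, MRPL12 (ratio 0.546) and MRPS24 (ratio 1.54) did. The median was −0.18 for the MRPL genes and −0.18 for the MRPS genes, against −0.01 over all genes and −0.07 over the short genes. The lowest were MRPS9, at −0.47 (interval −0.61 to −0.33), MRPS14, at −0.43 (interval −0.61 to −0.25), and MRPL20, at −0.41 (interval −0.50 to −0.33). The single member higher with BenSer was MRPS6, at 0.43 (interval 0.31 to 0.55). The doses were 10 mM and 1 mM, so that these values do not compare the compounds at a matched dose.

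With BenSer, 27 of 46 members listed as having a counterpart in the bacterial ribosome were lower by 1.2-fold or more (median −0.27). Of those not so listed, 11 of 29 were (median −0.23), where 15% of all genes and 29.4% of the short genes were. The list was not checked against protein sequences, and the placing of single genes, such as MRPL47 among those not listed, is uncertain. With GPNA the medians were −0.09 and −0.05. The difference between these sets of members was not tested. Head-to-head members had a BenSer median of −0.26 (24 genes), as did the others (51 genes).

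Mitoribosome proteins named otherwise were also lower with BenSer, with a median of −0.34, and all 7 had an interval below 0. By 1.2-fold or more 4 of 7 were lower, against 15% of all genes and 29.4% of the short genes. AURKAIP1, a small subunit protein first described as a binding partner of Aurora A kinase, was at 65.8 and 66.6 CPM in control, 57.4 and 59.6 CPM in GPNA-treated and 47.0 and 47.3 CPM in BenSer-treated cells. Its 3 groups were separate, with a BenSer difference of −0.48. PTCD3, a pentatricopeptide protein of the small subunit, went from 53.1 and 53.9 CPM in control to 44 and 47.2 CPM with GPNA and 40.1 and 42.5 CPM with BenSer. CHCHD1 had the highest BenSer value of the 7, at −0.13. With GPNA 0 of the 7 passed 1.2-fold, and the median was −0.13, with PTCD3 the lowest at −0.23 and MRP63 the highest at −0.02.

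Factors that build the mitoribosome had a BenSer median of −0.15 over 32 genes. By 1.2-fold or more, 6 of them were lower, a share near the 15% of all genes. C1QBP, a mitochondrial matrix protein that binds RNA, was the lowest of them in both comparisons. It was at 87.5 and 89.0 CPM in control, 73.0 and 72.3 CPM in GPNA-treated and 50.8 and 52.1 CPM in BenSer-treated cells, separate groups with differences of −0.28 and −0.77 from control. With GPNA the median of the 32 was −0.15, and 3 were lower by 1.2-fold or more, against 5.86% of all genes. NGRN had the highest BenSer value (0.16) and LETMD1 the highest GPNA value (0.10).

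Translation factors of the mitochondrion, listed together with related proteins, had a BenSer median of −0.18 over 19 genes. Of these, 5 were lower by 1.2-fold or more against 15% of all genes, and the GPNA median was −0.09 with 0 lower. The list is broad and also holds LRPPRC, SLIRP, OXA1L and CMC1. MTFMT, which formylates the initiator methionyl-tRNA, was the lowest with BenSer, at 9.04 and 7.93 CPM in control and 5.66 and 6.32 CPM in BenSer-treated cells (difference −0.44, interval −0.62 to −0.26). C12orf65, a factor of the release factor family, was the lowest with GPNA (−0.26), and the highest was CMC1 with BenSer (0.11). With GPNA the highest were PDF (0.14), from 37 reads in all 6 columns, and GFM2 (0.12).

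Counted by gene, the messages that the mitoribosome translates had mostly higher values with BenSer. Of 13 messenger RNAs encoded in mitochondrial DNA, 3 were higher by 1.2-fold or more with BenSer (10.4% of all genes) and 0 lower (15%), with a median of 0.10. With GPNA 2 were lower by 1.2-fold or more (5.86% of all genes) and 0 higher (5.18%), with a median of −0.10. MT-ND6, the only one of them encoded on the light strand, was at 14.8 and 15.9 CPM in control, 16.4 and 17.1 CPM in GPNA-treated and 19.0 and 20.4 CPM in BenSer-treated cells, and had the highest value in both comparisons (0.12 and 0.34). MT-CYB was the lowest with GPNA, from 301 and 310 CPM to 239 and 240 CPM, and MT-CO3 the lowest with BenSer (−0.12). Of the 13, 4 had a BenSer difference below 0, and 8 had an interval above 0. MT-CO1, the message with the highest level, was among the lower ones. It was at 4260 and 4230 CPM in control and 4110 and 4120 CPM in BenSer-treated cells (−0.05). The summed level of the 13 was not computed. The mitochondrial ribosomal RNAs MT-RNR1 and MT-RNR2 had BenSer differences of 0.03 and 0.16 and GPNA differences of −0.13 and 0.06.

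Nuclear genes for the respiratory chain had a BenSer median of −0.23. By 1.2-fold or more 34 of 78 were lower, against 15% of all genes and 29.4% of the short genes. ATP5D, a subunit of ATP synthase, was the lowest, from 17.9 and 17.5 CPM in control to 9.48 and 9.30 CPM in BenSer-treated cells, and NDUFA2 the highest (0.20). With GPNA their median was −0.06, with 1 gene lower by 1.2-fold or more, UQCR11 (−0.28), and NDUFA2 again highest (0.22). Cytosolic ribosomal protein genes, 82 of 83 past the filter, had a BenSer median of −0.32, with 49 lower by 1.2-fold or more against the same shares. RPS23 was the lowest of them (−0.74), from 13 and 15.5 CPM to 7.92 and 8.26 CPM, and RPS27L the highest (0.05). With GPNA the cytosolic genes had a median of −0.01, with 0 past 1.2-fold in either direction, and ran from RPL36A (−0.21) to RPS15A (0.19).

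**Figure D5:**
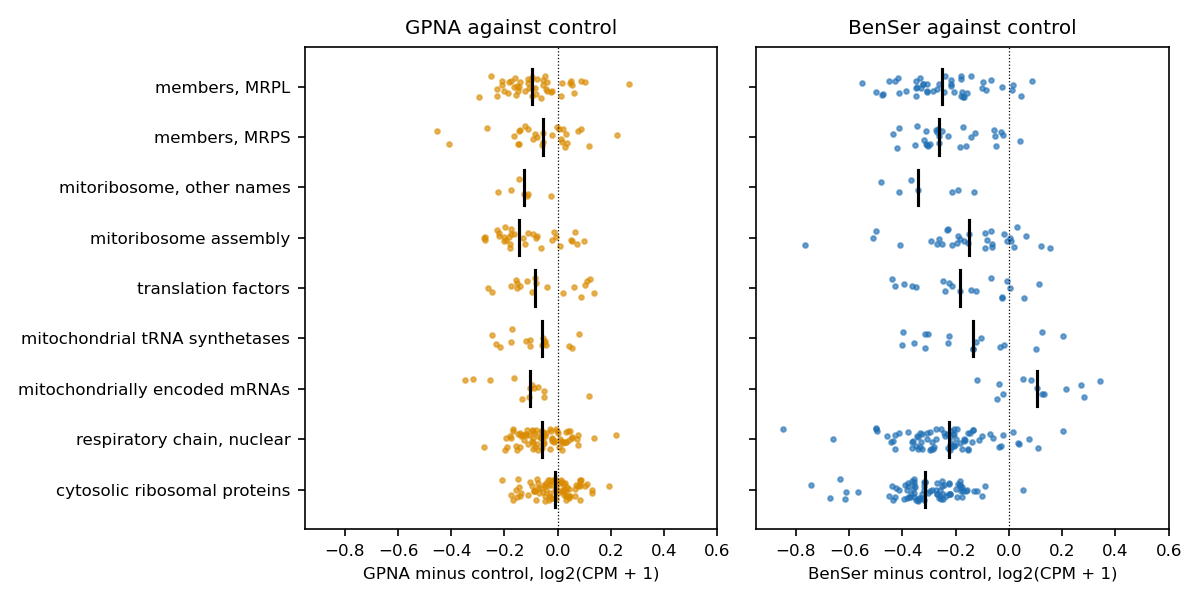
Points give each gene's difference in log2(CPM + 1) from control for GPNA (left) and BenSer (right), with a black bar at the median of each group of genes; vertical scatter carries no value. With BenSer the medians are below 0 for MRPL (−0.25), MRPS (−0.26), other mitoribosome proteins (−0.34), nuclear respiratory chain (−0.23) and cytosolic ribosomal protein genes (−0.32) and above 0 for mitochondrially encoded mRNAs (0.10).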

How the data were processed

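PC-3 total RNA libraries from untreated, GPNA-treated and BenSer-treated cells were analysed. According to the methods of the study, the libraries were stranded and read from both ends. The authors trimmed the reads, mapped them with TopHat2 to hg19/GRCh37.p13, counted them per gene and deposited CPM, that is, reads divided by the library total, in columns named as counts. Submitters' processing notes also name Bowtie2, HTSeq 0.6.2p2 and DESeq. The annotation release and counting mode are not given in the sources used here. The tables also hold the authors' log2 fold change, mean log2 CPM, p-value and false discovery rate, which were not used. Columns 1 and 2 of each group match a label. The 8 other value columns (6 if the control columns of both tables are counted once) match none and were not used. The methods of the study describe exact tests on more replicates per group than the labels name. Whether the unmatched columns hold the other replicates cannot be told from the labels.

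All values (100%) were whole reads over the library total within 0.01 reads, and reads were recovered. Columns 1 and 2 were compared by a chi-square (genes with 20 reads or more in the pair) and counted as 1 sample. Differences are of log2(mean CPM + 1), taken where one of the groups compared averaged 5 reads or more, which held for all 75 members. Clopper-Pearson intervals (95%) on merged reads cover counting error only. Genes were counted at 1.2-fold and 1.5-fold. Counts called by the quasi-likelihood test of edgeR 4.0.16 (R 4.3.3), which compares these libraries and not the treatments, were 1696 lower and 1466 higher genes for GPNA and 3429 and 3585 for BenSer, of 19216. Scaling by TMM and by DESeq2 1.42.0 size factors, a pseudocount of 0.1, no filter and each column left out were tried.

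Gene models were GENCODE v44 on GRCh37 (73 members matched by identifier, 2 by symbol). Named members were the 6 lowest and 4 highest differences per treatment among those with at least 100 reads in both groups, the 3 highest and 3 lowest levels per kilobase, the MRPS18 genes, MRPS30, MRPS36 and MRPL12, and the extremes of each list. The lists were mitoribosome proteins of other names, assembly factors, translation factors with related proteins, tRNA synthetases, and transcription and its regulators. Further lists were mitochondrially encoded RNAs, nuclear respiratory chain genes, cytosolic ribosomal proteins and PC-3 markers. Some markers are not reported here. Members and lists were chosen with earlier results of these data known. Analyses used Python 3.11.15, and were tested on simulated data.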

Additional observations from a re-analysis of the deposited data

How the results depend on the processing

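Under 90 recomputations of the medians, counts and subunit differences, 71 moved by less than their counting error or 1.5 times and 19 moved further. The sign changed in 0 of the medians and counts over members, in 5 of the subunit differences, all of them near 0, and in 11 of 266 recomputed differences of single members. Under TMM and median-of-ratios scaling the member median was −0.047 and −0.049 for GPNA and −0.22 and −0.22 for BenSer, and 2 and 2 members were lower by 1.2-fold with GPNA. A pseudocount of 0.1 gave 7 such members. By an interval below 0 in place of a fold, 28 members were lower with GPNA, 58 with BenSer and 47 in BenSer against GPNA. The edgeR test at an adjusted p under 0.05 called 9, 50 and 42 members lower, against 8.83%, 17.8% and 16.3% of all genes tested. It called 2, 0 and 2 higher, against 7.63%, 18.7% and 18.2%, and 6, 0 and 2 were higher at an unadjusted p under 0.05. With the replicate block it called 9, 50 and 42 lower as well, and the block changed no count of members. Same-numbered columns share only a number, with correlations of their deviations of 0.04 to 0.07. With one column left out at a time, the member median ranged from −0.096 to −0.073 for GPNA, from −0.27 to −0.23 for BenSer and from −0.19 to −0.16 between the treatments. The GPNA count ranged from 3 to 7, and was 7 without GPNA replicate 1. The MRPL minus MRPS median for BenSer ranged from −0.019 to 0.022, against 0.01 with all columns, so that its sign was not settled. For GPNA it ranged from −0.0569 to −0.0282, against −0.0403 with all columns. Members with at least 10 CPM, and those without overlap on the same strand, both chosen after seeing the data, gave medians of −0.26 for BenSer. Of the single members 2 values moved further than their counting error: MRPL12 with BenSer to −0.64 at a pseudocount of 0.1, and MRPS18C with BenSer to −0.38 without BenSer replicate 2. The cause of these moves was not tested. With the labelled columns of a group counted as 1 sample, no setting measures variation between cultures.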

Other observations

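The mitochondrial tRNA synthetases, which charge the tRNAs that the mitoribosome uses, had a BenSer median of −0.14 over 17 genes, 6 of them lower by 1.2-fold or more, against 15% of all genes, and 0 higher. WARS2, the tryptophanyl enzyme, was lowest, from 10.7 and 9.36 CPM in control to 6.59 and 8.11 CPM in BenSer-treated cells, and PARS2, the prolyl enzyme, was highest, with a difference of 0.20. With GPNA the median was −0.06 with 0 lower by 1.2-fold or more, and the values ran from MARS2 (−0.25) to EARS2 (0.08).

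Genes for transcription of mitochondrial DNA and its regulators had medians of −0.17 with BenSer and −0.12 with GPNA over 16 genes, with 3 lower by 1.2-fold or more in each comparison. Over all genes 15% were so with BenSer, near the share of the list, and 5.86% with GPNA. PPRC1, a coactivator of the PGC-1 family, had the lowest value of the list with GPNA. It was at 23.9 and 24.5 CPM in control, 16.7 and 18.7 CPM in GPNA-treated and 15.9 and 18.6 CPM in BenSer-treated cells, with differences of −0.43 and −0.46. PPARGC1B, of the same family, was the lowest with BenSer, and PPARGC1A was not listed. PPARGC1B was at 15.2 and 14.6 CPM in control, 11.3 and 12.8 CPM in GPNA-treated and 9.91 and 10.8 CPM in BenSer-treated cells, with differences of −0.28 and −0.49. Both genes were below control in all treated columns. GABPA, the DNA-binding part of the ETS factor GABP, had differences of 0.00 and 0.06, and NRF1 of 0.00 and −0.06. TEFM was highest with GPNA (0.18) and MTERF with BenSer (0.15).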
